A study of Mus musculus with 208 samples.

Results

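Wt1, Onecut1, Pou4f1, Twist1 and Pax6 encode transcription factors that pattern tissues of the embryo, and they are 5 of the 39179 genes counted in the striatum of mice with a CAG repeat of graded length in huntingtin, Htt. They were picked by symbol as developmental regulators whose counts are higher with long repeats, and all 5 were found in the count table. Their Ensembl IDs there are ENSMUSG00000016458 for Wt1, ENSMUSG00000043013 for Onecut1, ENSMUSG00000048349 for Pou4f1, ENSMUSG00000035799 for Twist1 and ENSMUSG00000027168 for Pax6. Because that choice used the difference between long-repeat lines and mice with a short or no knock-in repeat, this difference is given below as values and carries no test.

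Every knock-in mouse was heterozygous, with 1 altered Htt allele on the C57BL/6 background. The lines Q175, Q140, Q111, Q92, Q80 and Q20 are named by repeat length, and a long repeat in this gene causes Huntington disease in people. Q20 carries the knock-in too, with a short repeat. PolyA RNA was sequenced from mice of 2, 6 and 10 months. Wild types were housed with Q20 at 2 and 10 months, and at 6 months there was a wild-type group for each of the lines, from its cages. The 208 libraries form 26 groups of 8, of which 18 are knock-in and 8 wild type. A group held 4 females and 4 males, but Q80 of 2 months held 3 and 5, and Q20 of 10 months 5 and 3. The total of a library, in units of 1000000 counts, was 29.1 to 49.6 (median 35.7). At 2 months 5 libraries, 2 each of Q20 and Q92 and 1 of Q80, had a median correlation below 0.97 with the other libraries of that age.

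A transcription factor binds DNA and sets which genes a cell reads. The factors described here act mainly in the embryo, where they fix what a cell becomes, and many genes of this kind are kept silent in other tissues by Polycomb proteins. Their promoters are often rich in CpG, a C followed by a G. Most neurons of the adult striatum are medium spiny projection neurons, which are known for a different set of factors that includes Foxp1, Bcl11b and Ebf1.

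Promoter sequences show how CpG-rich 2 of these genes are. RefSeq promoters on the GRCm38.p6 build were at hand for Onecut1, Pou4f1, Twist1 and Pax6, which has 2, and none for Wt1. The 250 bases before the start of each transcript are used, 5′ to 3′ on the strand of the gene, with each CG in capitals. Onecut1 lies on the plus strand (chr9:74861671-74861920), Pou4f1 on the minus strand (chr14:104468000-104468249) and Twist1 on the plus strand (chr12:33957421-33957670).
Onecut1: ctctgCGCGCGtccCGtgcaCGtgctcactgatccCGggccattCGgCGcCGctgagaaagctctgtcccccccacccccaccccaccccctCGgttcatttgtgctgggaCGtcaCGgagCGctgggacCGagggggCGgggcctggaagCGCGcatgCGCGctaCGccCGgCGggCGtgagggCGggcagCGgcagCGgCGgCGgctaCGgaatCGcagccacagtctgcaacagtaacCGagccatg
Pou4f1: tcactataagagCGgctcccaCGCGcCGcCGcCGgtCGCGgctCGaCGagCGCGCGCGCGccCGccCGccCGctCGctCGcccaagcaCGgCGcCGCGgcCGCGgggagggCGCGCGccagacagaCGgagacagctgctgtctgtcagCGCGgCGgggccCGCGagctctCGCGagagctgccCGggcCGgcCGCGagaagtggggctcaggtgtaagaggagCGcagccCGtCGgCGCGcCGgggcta
Twist1: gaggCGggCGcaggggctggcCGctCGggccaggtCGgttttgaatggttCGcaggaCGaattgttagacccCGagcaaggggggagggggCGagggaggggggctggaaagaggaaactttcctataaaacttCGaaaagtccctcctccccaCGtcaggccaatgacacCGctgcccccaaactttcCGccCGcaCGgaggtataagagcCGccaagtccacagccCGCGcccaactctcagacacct

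The Pou4f1 window held 47 CpG, a number that 0.25% of 32841 mouse promoters of this length reach, and that of Onecut1 held 31 (5.19% of promoters). Twist1 had 18 (21.7%) and each Pax6 window 15 (27.3%), against a median of 6 over all promoters. Of 6 motifs searched on both strands, the E-box CANNTG, which Twist1 and its relatives bind, was in 3 of the 5 windows, those of Onecut1, Pou4f1 and 1 of Pax6, and in 66.2% of all promoters. TATAAA was in the Twist1 window and in 12.4% of all. GCGGGGGCG and GCGTGGGCG, zinc finger motifs of the Wt1 and Egr type, ATTGAT, a Onecut motif, and TAATTA, a homeobox motif, were in none of the 5 windows and in 2.57%, 0.536%, 6.72% and 4.84% of all promoters. None of the 6 motifs is part of another.

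Wt1 is a zinc finger factor of kidney and gonad development, and it was close to absent from the striatum unless the repeat was long and the mouse old enough. In the 88 wild-type and Q20 libraries of all ages it had 0 to 8 counts, with 15 libraries at 0. In Q175 it had 1 to 7 counts at 2 months (median 3.5), 59 to 160 at 6 months (median 106.5) and 122 to 215 at 10 months (median 144.5). Each Q175 library of 6 and 10 months was thus above each Q20 library, while at 2 months the groups overlapped. Of all tested genes 4.46% at 6 months and 1.97% at 10 months were set off in this way. In bulk tissue many cells with a little of an RNA and few cells with much, or fewer cells of a type and less RNA per cell, cannot be told apart. In counts per 1000000 of the scaled library, CPM, Wt1 averaged 4.56 ± 1.20 CPM in Q175 at 10 months and 0.0878 ± 0.0869 CPM in Q20 (SD, n = 8 each). The fitted log2 fold change was 5.75 (SE 0.273) there and 5.28 (SE 0.309) at 6 months. Against wild types it was 6.38 (SE 0.297) at 10 months and, with the cage mates of Q175, 5.12 (SE 0.304) at 6 months.

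The shorter of the long repeats had less Wt1 and had it later. Q140 libraries held 30 to 82 counts at 6 months (median 52) and 104 to 183 at 10 months (median 119.5). Q111 libraries held 3 to 22 counts at 6 months (median 9) and 47 to 128 at 10 months (median 58). Every Q140 library of both ages was above every Q20 library, whereas in Q111 this held at 10 months and for 5 of 8 libraries at 6 months. Of all tested genes 2.53% at 6 months and 1.65% at 10 months were set off in this way in Q140. The share was not counted for Q111, for Q92 or between lines with long repeats. Q92 had 0 to 3 counts at 6 months and 5 to 17 at 10 months (median 8), with 4 of 8 libraries above all Q20 libraries. Q80 stayed at 0 to 6 counts at every age. In order of level at 10 months, Q80 and Q20 overlapped, the highest Q92 library (0.538 CPM) lay below the lowest Q111 library (1.17 CPM), and Q111 (up to 3.74 CPM), Q140 (3.01 to 5.55 CPM) and Q175 (3.50 to 6.80 CPM) overlapped with their neighbours. The fitted log2 fold changes against Q20 at 10 months were −0.30 (SE 0.502) in Q80, 1.66 (SE 0.381) in Q92, 4.50 (SE 0.289) in Q111, 5.52 (SE 0.275) in Q140 and 5.75 in Q175.

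Onecut1 is a homeobox factor of liver, pancreas and spinal motor neurons, and its counts followed the same order of lines and ages. Wild types and Q20 had 0 to 12 counts over all ages, with 20 of 88 libraries at 0. In Q175 it had 0 to 7 counts at 2 months (median 3.5), 61 to 158 at 6 months (median 112.5) and 48 to 214 at 10 months (median 130.5). The lowest of the 10-month values was the male M4, with 48 counts, and it was still above all Q20 libraries (0 to 9). Onecut1 averaged 3.71 ± 1.28 CPM in Q175 and 0.143 ± 0.0854 CPM in Q20 at 10 months (SD, n = 8 each), a fitted log2 fold change of 4.65 (SE 0.280). At 6 months the means were 2.45 ± 0.666 CPM in Q175 and 0.0727 ± 0.0527 CPM in Q20, a change of 5.02 (SE 0.377).

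In Q140 Onecut1 had 15 to 49 counts at 6 months (median 35.5) and 65 to 131 at 10 months (median 92). In Q111 it had 3 to 11 counts at 6 months (median 9) and 29 to 59 at 10 months (median 43.5). As for Wt1, every Q140 library of both ages and every Q111 library of 10 months was above every Q20 library. The shares of all genes for Q140 are those given with Wt1, and none was counted for Q111 or between lines with long repeats. The 2 genes differed in how far the lines had come by 6 months. The mean of Onecut1 in Q140 was then 0.838 ± 0.261 CPM, against 2.45 CPM in Q175, while that of Wt1 was 1.26 ± 0.418 CPM in Q140 and 2.35 ± 0.609 CPM in Q175. The highest Q140 library (1.21 CPM) lay below the lowest Q175 library (1.36 CPM) for Onecut1 at 6 months, and the lines overlapped for Wt1. Q92 at 10 months had 3 to 12 counts of Onecut1, which overlapped with Q20. The lincRNA gene Gm20649 lies over Onecut1 on the same strand. Its counts were 0 to 38 in Q175 and 0 to 4 in Q20 at 10 months, and reads that the authors' estimation moved between the overlapping genes cannot be told apart here.

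**Figure D1:**
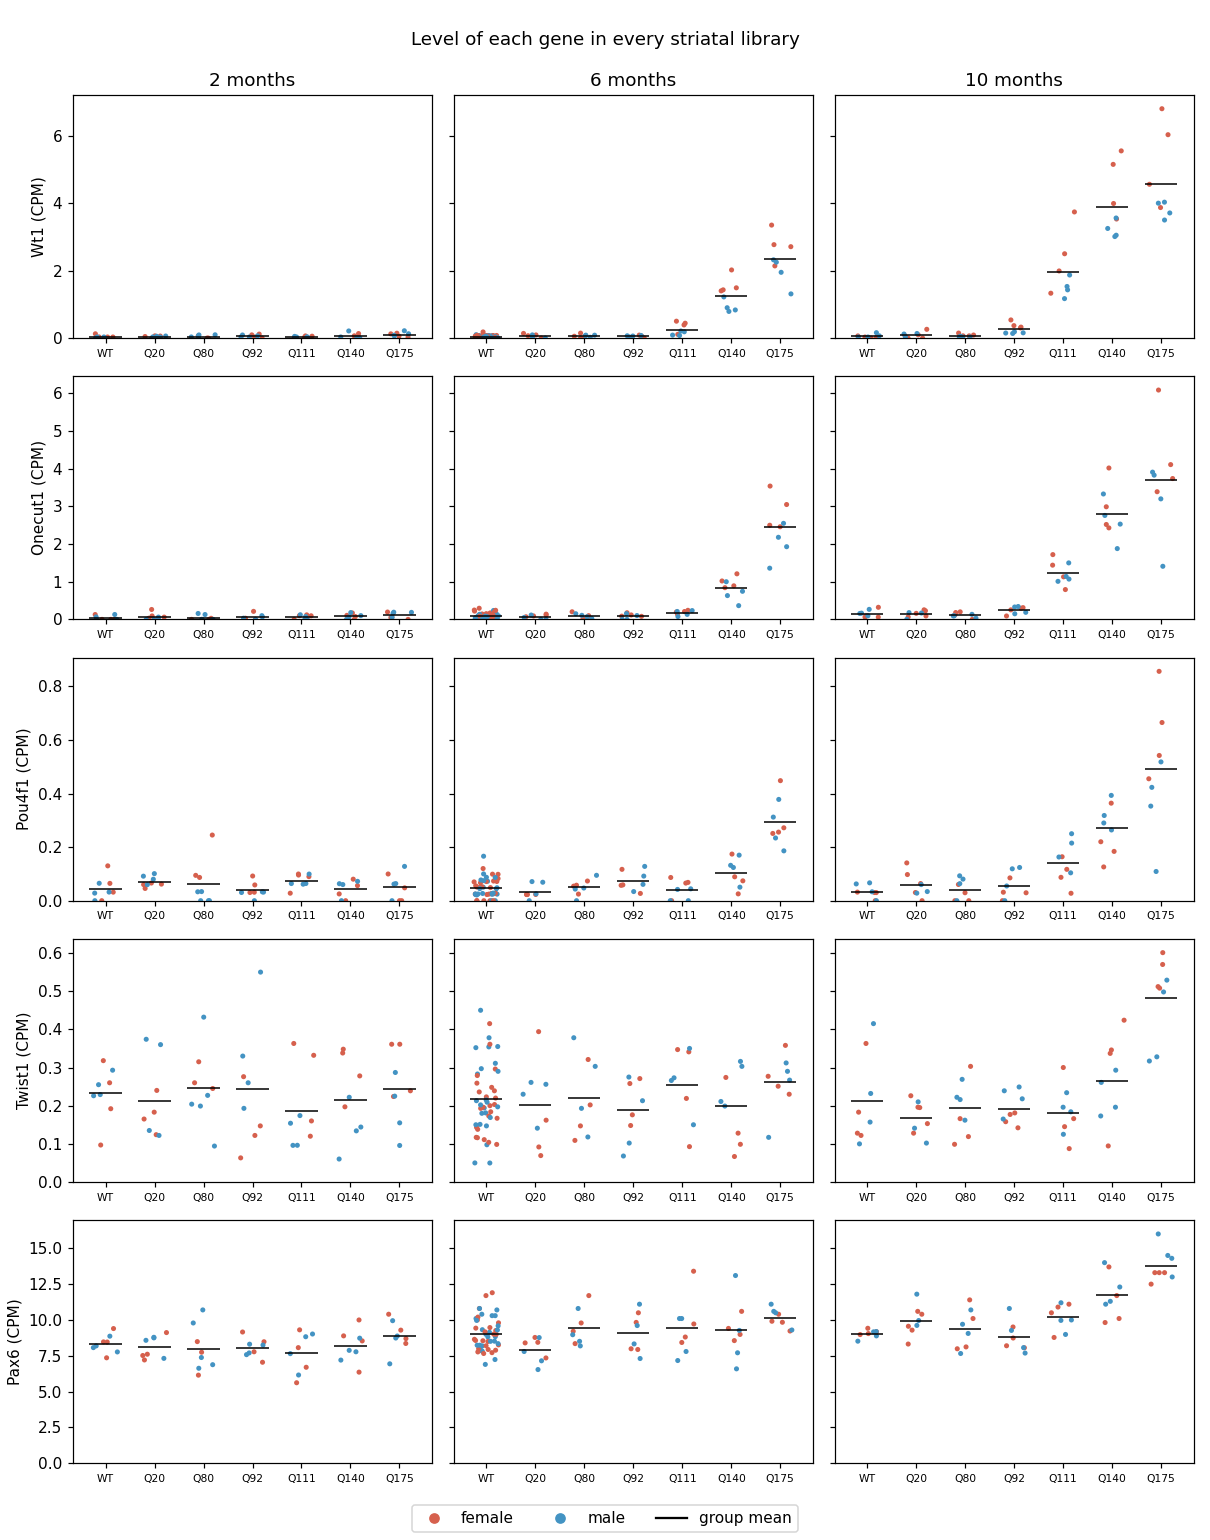
Level of each gene (CPM, linear axis from 0, its own scale per gene) in every library by group, at 2, 6 and 10 months from left to right. Points are libraries in the colour of their sex and the bar is the group mean. Wt1 and Onecut1 leave the floor in Q140 and Q175 at 6 months and in Q111 as well at 10 months, while Pax6 is present in all libraries.

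Pou4f1, a POU homeobox factor of sensory neurons and of the medial habenula, followed at a much lower level. Wild types and Q20 had 0 to 7 counts. Q175 had 0 to 4 counts at 2 months, 9 to 20 at 6 months (median 12.5) and 4 to 27 at 10 months (median 17.5). At 6 months each Q175 library was above each Q20 library (0 to 3), and at 10 months 7 of 8 were above the Q20 libraries (0 to 5), the exception being the male M3 with 4 counts. Means at 10 months were 0.490 ± 0.220 CPM in Q175 and 0.0570 ± 0.0449 CPM in Q20, with a fitted log2 fold change of 2.98 (SE 0.407). In Q140 Pou4f1 had 1 to 7 counts at 6 months and 4 to 14 at 10 months, and in Q111 0 to 4 and 1 to 10. The changes against Q20 at 10 months were 1.22 (SE 0.489) in Q111 and 2.14 (SE 0.444) in Q140. At 2 and 6 months the gene was too low to enter the fit, and its fold changes are left out.

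Twist1 encodes a basic helix-loop-helix factor of mesoderm and cranial neural crest. It was found in every one of the 208 libraries, with 2 to 20 counts, so it was not new to the striatum of long-repeat mice. Its mean level was highest in 1 group, Q175 at 10 months, with 11 to 20 counts (median 18). At that age Q20 had 3 to 8 counts (median 5.5) and wild types 3 to 13 (median 5.5). In CPM the Q175 libraries (0.317 to 0.601) overlapped with wild types (up to 0.415) and Q140 (up to 0.424). Each of those Q175 libraries was above each Q20 library in CPM, with means of 0.483 ± 0.105 CPM in Q175 and 0.169 ± 0.0440 CPM in Q20. The fitted log2 fold change was 1.49 (SE 0.245) against Q20 and 1.16 (SE 0.237) against wild types. At 6 months Q175 had 6 to 16 counts and Q20 had 3 to 17, a change of 0.39 (SE 0.299). At 2 months the change was 0.17 (SE 0.328), and 0.64 without the 5 libraries of low correlation. In Q140 at 10 months there were 3 to 14 counts, a change of 0.64 (SE 0.266), and the group overlapped with Q20.

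Pax6, a paired box factor of eye and forebrain that adult neuroblasts and some olfactory bulb neurons keep, was plainly present in all libraries, with at least 188 counts. The word ectopic therefore does not describe Pax6, nor Twist1 at its low level. Q175 at 10 months ran from 12.5 CPM upward (median count 468), Q20 from 8.32 to 11.8 CPM (median count 320) and wild types from 8.52 to 9.42 CPM (median count 290.5). The means were 13.8 ± 1.11 CPM in Q175, 9.95 ± 1.04 CPM in Q20 and 9.05 ± 0.269 CPM in wild types. Each Q175 library was above each Q20 library in CPM, with a fitted log2 fold change of 0.46 (SE 0.0737). Q140 lay between, at 11.8 ± 1.52 CPM and a change of 0.23 (SE 0.0741), with 3 of 8 libraries above all Q20 libraries.

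At 6 months the difference in Pax6 depended on the mice it was set against. Q175 had 10.1 ± 0.651 CPM, its own wild-type cage mates 9.51 ± 1.57 CPM and Q20 7.90 ± 0.831 CPM. The fitted change was 0.36 (SE 0.0967) against Q20 and 0.09 (SE 0.0959) against the cage mates. Q20 was the lowest of the 12 groups of that age, and Q80, Q92, Q111 and Q140 had means of 9.08 to 9.44 CPM. The antisense gene Pax6os1, which overlaps Pax6, had 0 to 8 counts in all libraries, beside at least 188 of Pax6.

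Counting genes whose every Q175 library was above every Q20 library gave Wt1, Onecut1, Pou4f1 and Pax6 at 6 months and Wt1, Onecut1, Twist1 and Pax6 at 10 months. Over all tested genes this held for 4.46% at 6 months and 1.97% at 10 months, and the choice of the 5 genes used these comparisons. For Q140 it held for Wt1 and Onecut1 at both ages, against 2.53% of genes at 6 months and 1.65% at 10 months. At 2 months it held for none of the 5 genes in either line, against 0.0235% of all tested genes for Q175 and 0.0118% for Q140. The shares cover genes that passed the filter, which leaves out Pou4f1 at 6 months and Wt1, Onecut1 and Pou4f1 at 2 months. Per kilobase of transcript, in FPKM, the levels in Q175 at 10 months were ordered Pax6 (mean 5.90), Wt1 (1.97), Onecut1 (0.972), Twist1 (0.307) and Pou4f1 (0.274). In wild types of all ages the means were 3.64 FPKM for Pax6, 0.134 for Twist1, 0.0288 for Pou4f1, 0.0278 for Onecut1 and 0.0230 for Wt1, and the order of the last 3 rests on 0 to 12 counts a library.

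**Figure D2:**
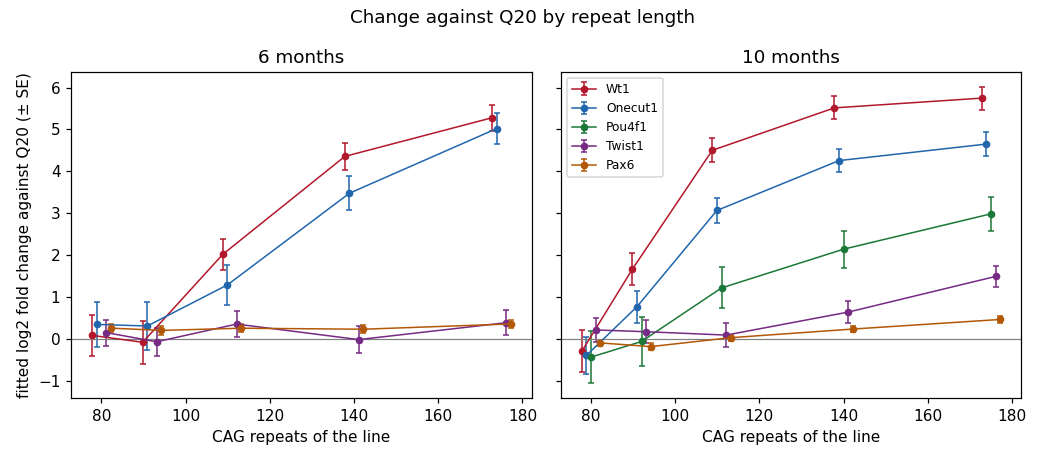
Fitted log2 fold change against Q20 (points, with SE bars) by the CAG repeats of the line at 6 months (left) and 10 months (right) for the genes that entered the fit. Wt1 and Onecut1 lie above 0 by more than 1 SE from Q111 onward at 6 months and from Q92 onward at 10 months, Pou4f1 from Q111 onward at 10 months, and Twist1 and Pax6 stay under 1.5.

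Comparisons that the choice of genes did not use were tested with edgeR's quasi-likelihood test, with p-values adjusted over all genes by the Benjamini-Hochberg method. The first asked whether a short repeat alone moves these genes, with Q20 set against its wild-type cage mates. Pax6 did not pass at any age, nor did Twist1 at 2 and 6 months. Of all genes 0% passed at 2 months, 0.0227% at 6 months and 0.0116% at 10 months. Wt1, Onecut1 and Pou4f1 passed the filter on low counts through the long-repeat groups of those ages. Twist1 passed it at 10 months largely with the Q175 libraries. The tests of these genes between Q20 and wild types at those ages carry no weight. At 6 months Wt1 had 0 to 6 counts in Q20 and 0 to 3 in wild types, and Onecut1 0 to 6 in Q20 and 2 to 8 in wild types. Pax6 was at −0.25 (SE 0.0974, adjusted p = 0.844) at 6 months and 0.14 (SE 0.0751, adjusted p = 0.972) at 10 months.

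A second test asked whether the 6 wild-type groups of 6 months differed by the line they were housed with. Of all genes 1.34% passed and neither Twist1 (adjusted p = 0.779) nor Pax6 (adjusted p = 0.686). Wt1, with a median of 2 counts in these wild types, and Onecut1, with 3, had entered the fit through the long-repeat groups and are too low there for their values (adjusted p = 0.577 and 0.922) to say anything of housing. For ageing without a knock-in, wild types of 10 months were set against those of 2 months, where 26.1% of genes passed. Only Pax6 was high enough to be tested, and it did not pass, with 9.05 ± 0.269 CPM at 10 months and 8.32 ± 0.635 CPM at 2 months, a change of 0.09 (SE 0.0712, adjusted p = 0.408). In wild types of 10 months Wt1 had 0 to 5 counts, Onecut1 2 to 10 and Pou4f1 0 to 2. At 2 months they had 0 to 4 counts each, and these counts were not tested.

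Wt1 was higher in females than in males in several groups. In Q140 at 6 months females had 55 to 82 counts and males 30 to 49, without overlap, and in Q92 at 10 months females had 10 to 17 and males 5 or 6. In Q175 at 6 months females had 94 to 160 counts and males 59 to 112, which overlap. The sexes overlapped in the other groups of Q92, Q111, Q140 and Q175 at 6 and 10 months too. The groups without overlap were picked after their counts were seen, and the share of all genes set off by sex was not counted. The test within Q175 alone gave 0.49 (SE 0.283, adjusted p = 1) at 6 months, where 0.113% of all genes passed. At 10 months it gave 0.48 (SE 0.231, adjusted p = 0.814), where 0.0815% passed. None of the other genes passed either, with Onecut1 at 0.53 (SE 0.356, adjusted p = 1) and 0.49 (SE 0.281, adjusted p = 0.85) and Pou4f1 at 0.83 (SE 0.386, adjusted p = 0.8) at 10 months. In each of these tests 4 females stand against 4 males.

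The next tests were added after the counts of Wt1 by sex had been seen. Averaged over Q111, Q140 and Q175 at 6 months, females exceeded males by 0.86 on the log2 scale (SE 0.198, edgeR adjusted p = 0.0137), with 12 females and 12 males, where 0.584% of all genes passed. The mean CPM was 0.360 in females and 0.140 in males of Q111, 1.59 and 0.936 in Q140 and 2.74 and 1.96 in Q175, so females were higher in each line. This call was lost without Q111 (0.62, adjusted p = 0.374), without Q140 (0.90, adjusted p = 0.121), without Q175 (1.04, adjusted p = 0.075) and without the single Q111 female F1 (0.79, adjusted p = 0.05). Adjusted p ran from 0.00245 to 0.05 with each library left out. At 10 months the same average was 0.55 (SE 0.139) and did not pass with edgeR (adjusted p = 0.0518, 0.425% of genes passed), while it passed with DESeq2 (adjusted p = 0.0147), with limma (0.00298) and with a replicate block (0.0168). Adjusted p was 0.242 to 0.38 without 1 of the 3 lines. Line means were then 2.39 CPM in females and 1.50 CPM in males of Q111, 4.56 and 3.22 in Q140 and 5.32 and 3.81 in Q175.

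In wild types of 6 months Wt1 was low in both sexes. Females had 1 to 7 counts, with 0 of 24 libraries at 0, and males had 0 to 4, with 7 of 24 at 0. These counts are below the filter, which Wt1 passed through the long-repeat groups, so the fitted difference is given as a value only. It was 1.01 (SE 0.340) on the log2 scale. Of all genes 7.35% passed in this comparison with edgeR, and neither Twist1 nor Pax6 did. The sex difference of the 3 long-repeat lines minus that of wild types, −0.16 (SE 0.272, with 0% of all genes passing), rests on the same low counts. None of the other genes passed in the tests over the 3 lines.

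**Figure D3:**
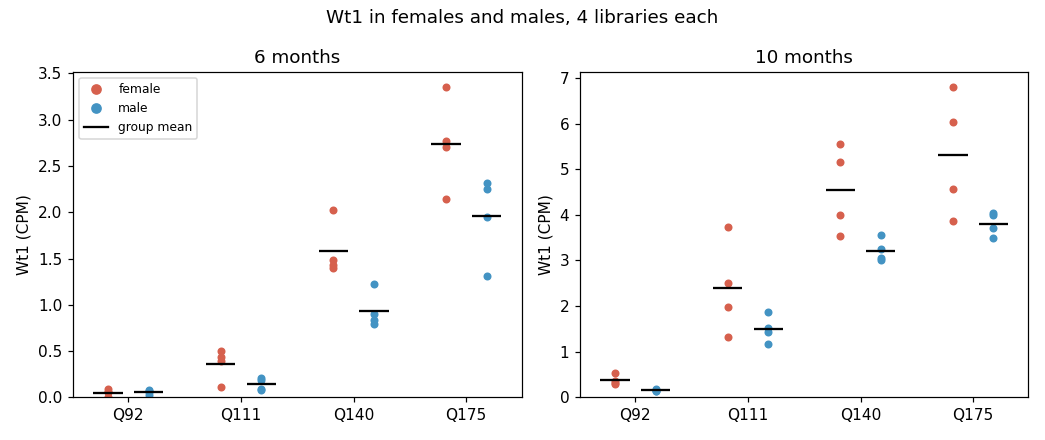
Wt1 (CPM, linear axis from 0) in females and males of the lines Q92 to Q175 at 6 months (left) and 10 months (right), 4 libraries of each sex per line, with bars at the mean. Females lie above males without overlap in Q140 at 6 months and in Q92 at 10 months and overlap with them in the other groups shown. The share of all genes set off by sex was not counted.

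Whether the same libraries were high for several of these genes was looked at within Q175 at 6 and 10 months and Q140 at 10 months, 8 libraries each, with log2 CPM and exact two-sided permutation tests. Of 45 relations, none passed after Benjamini-Hochberg adjustment. The closest was Wt1 with Onecut1 in Q175 at 6 months, with r = 0.904 (exact p = 0.00417, adjusted p = 0.188) and rho = 0.857 (exact p = 0.0107, adjusted p = 0.347). Without the 2 libraries farthest from the median of Wt1, r was 0.755. The male M4 was lowest for both genes there, at 1.31 CPM of Wt1 and 1.36 CPM of Onecut1. Sex was not taken into account in these relations. Both genes had higher fitted levels in females of this group (log2 differences 0.49 and 0.53, neither passing with edgeR). In Q175 at 10 months r was 0.482 (exact p = 0.257, adjusted p = 0.898, rho = 0.69, exact p = 0.0694). Without the 2 farthest libraries r was 0.0172, a step that also narrows the range of Wt1. In Q140 at 10 months r was 0.328 (exact p = 0.431, adjusted p = 0.898, rho = 0.0952). The female F1 was highest for Onecut1 at 10 months in Q175, at 6.09 CPM, with 6.03 CPM of Wt1.

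**Figure D4:**
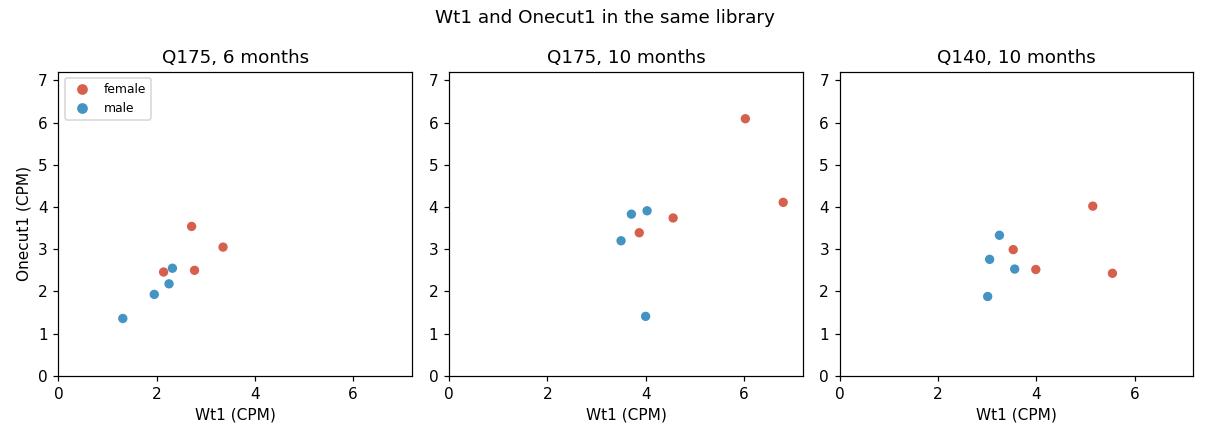
Onecut1 against Wt1 (both CPM) in the same library, 1 point per library in the colour of its sex, for Q175 at 6 months, Q175 at 10 months and Q140 at 10 months. The points follow each other closely in the first panel (r = 0.904 on the log2 scale) and spread in the others.

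Likeness of pattern was measured by Pearson's r over the 18 knock-in group means of log2 CPM, as a description, since the groups share the steps in repeat length and age. Wt1 and Onecut1 were most alike, with r = 0.989. Pou4f1 had r = 0.869 with Wt1 and 0.885 with Onecut1, Pax6 0.813 and 0.851, and Twist1 0.553 and 0.543. Among 15263 other genes the 3 most like Wt1 were Tmc3 (r = 0.972), Rgs19 (0.969) and Pcdhb12 (0.968), and those most like Onecut1 included Crnde (0.965) and Smoc1 (0.965). These are mostly well-expressed genes with small steps. Rgs19 had 13.3 ± 0.996 CPM in Q175 and 9.14 ± 0.819 CPM in Q20 at 10 months, and Crnde 2.61 ± 0.387 and 0.474 ± 0.155 CPM. The genes most like Pou4f1 were Hoxc4 (0.943), Hoxc6 (0.936) and Emx2os (0.914), with Hoxc4 at 3.02 ± 1.58 CPM in Q175 and 0.00815 ± 0.0230 CPM in Q20. Those most like Twist1 were Emx2 (0.892), Pax2 (0.876) and Hoxd8 (0.855), and for Pax6 they were Parp12 (0.94), Serpina3n (0.939) and Prss16 (0.937). Serpina3n, a serine protease inhibitor made by reactive astrocytes, had 18.5 ± 3.22 CPM in Q175 and 8.80 ± 1.47 CPM in Q20.

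Relatives in the same gene families were mostly at the floor. Of 13, only Onecut2 entered the fit, and it rose in Q175 by 0.57 at 10 months (SE 0.0913, edgeR adjusted p = 2.82e-06), at 65.5 ± 8.51 CPM in Q175 and 44.3 ± 5.96 CPM in Q20. It also rose by 0.44 at 6 months (SE 0.0829, adjusted p = 9.75e-06), where 36.2% of all genes passed, and was at 0.14 at 2 months (SE 0.144, adjusted p = 0.832). At 10 months 24.5% of all genes passed. Onecut3, the third member, had 0 to 6 counts in Q175 and 0 to 10 in Q20. Pax2 had 8 to 12 counts in Q175 and 0 to 2 in Q20 at 10 months, without overlap, and 1 to 8 and 0 to 2 at 6 months. Pou4f3 had 7 to 11 counts in Q175 and 0 to 3 in Q20 at 6 months, and 2 to 9 and 0 to 2 at 10 months. Pou4f2 had 2 to 8 counts in Q175 and 0 to 2 in Q20 at 10 months. Of all tested genes 4.46% at 6 months and 1.97% at 10 months had every Q175 library above every Q20 library. Pax2, Pou4f3 and Pou4f2 were below the filter, so these shares do not cover them. Twist2, Pax1, Pax3, Pax4, Pax5, Pax7, Pax8 and Pax9 had at most 7 counts in Q175 at 10 months and overlapped with Q20. At 6 months Pax7 reached 29 counts in a single Q175 library.

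Other patterning factors were followed in a list of their own. Of 174 regulators of embryonic patterning, Hox, Irx and Emx genes left out, 84 were high enough to be tested at 10 months, of which 4 rose and 6 fell in Q175 against Q20. That is 11.9% of the list, set beside 24.5% of all genes, and the list's median log2 fold change was −0.05, against 0.01 over all genes. Lmx1b, a LIM homeobox factor of midbrain dopamine and hindbrain serotonin neurons, rose by 2.94 (SE 0.355, adjusted p = 3.53e-09), with 45 to 80 counts in Q175 and 1 to 17 in Q20. It had 4 to 16 counts in Q175 and 1 to 13 in Q20 at 6 months, a change of 0.22 (SE 0.497, adjusted p = 0.772). The other rises included En2 (0.39, 2.42 ± 0.358 CPM in Q175 and 1.84 ± 0.442 CPM in Q20) and Nkx2-2 (0.35).

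The falls included several factors of the embryonic forebrain. Gbx1 fell by 0.60 on the log2 scale, Gli3, an effector of hedgehog signalling, by 0.52 (17.8 ± 1.43 CPM in Q175 and 25.7 ± 2.62 CPM in Q20, adjusted p = 3.23e-08), and Dlx6, a factor of GABA neurons, by 0.28. Lhx6 and Dlx1 fell too. At 6 months 89 were tested, of which 12 rose and 7 fell, 21.3% of the list beside 36.2% of all genes, with a median of 0.08 against 0.01. Chosen after their values were seen, Lhx9 was at 1.98 (SE 0.803, 12 to 128 counts in Q175 and 4 to 25 in Q20), Foxb1 at 1.51 (6 to 12 and 1 to 5) and Otp at 1.15 (4 to 37 and 3 to 5). At 2 months 77 were tested with edgeR and 0 passed, beside 0.218% of all genes in either direction and 0.0294% higher. The genes below the filter, 90 of 174 at 10 months, are not described by these counts.

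**Figure D5:**
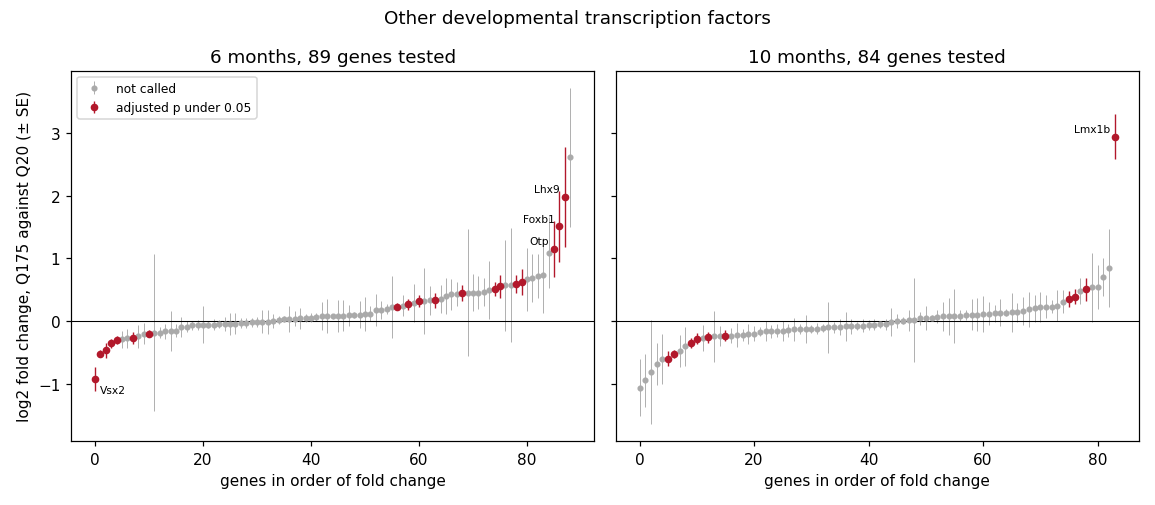
Log2 fold change in Q175 against Q20 (points, with SE bars) of the other developmental transcription factors that were high enough to be tested, in order of their change, at 6 months (left, 89 genes) and 10 months (right, 84 genes). Coloured points passed the test. At 10 months Lmx1b is the only one with a rise above 1.

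Partner proteins of Twist1 and the Polycomb complex were followed as well. Of 7 genes for helix-loop-helix proteins that pair with Twist1, 1 rose and 2 fell in Q175 at 10 months, 42.9% of the list beside 24.5% of all genes. Tcf12 rose by 0.25 (SE 0.0313), while Id4, an inhibitor of such factors, fell by 0.64 (SE 0.0605, adjusted p = 2.34e-12), to 72.7 ± 2.55 CPM in Q175, against 114 ± 7.85 CPM in Q20, and Id2 fell by 0.18. At 6 months 1 rose and 4 fell, 71.4% beside 36.2% of all genes, again with Id4 in front (−0.60, SE 0.0456). Of 11 subunits and cofactors of Polycomb repressive complex 2, which places a silencing mark on histone H3, 2 rose and 1 fell at 10 months, 27.3% of the list and close to the 24.5% of all genes. Eed rose by 0.18 and Rbbp4 by 0.08, and the enzyme Ezh2 fell by 0.18 (SE 0.0671, adjusted p = 0.049). At 6 months none rose and 3 fell, again 27.3%, beside 36.2% of all genes. They were Jarid2 (−0.16), Rbbp7 (−0.12) and Aebp2 (−0.19). The medians of the 2 lists at 10 months were 0.00 and −0.01, beside 0.01 over all genes.

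Markers of other cells and regions were counted in the same libraries. The 6 medial habenula markers, which go with Pou4f1, had 0 genes past the edgeR test at 6 and 10 months, and their summed level was 7.82 to 20.3 CPM in Q175 and 9.52 to 21.7 CPM in Q20 at 10 months. The 10 markers of leptomeningeal fibroblasts, cells of the covering of the brain, had 0 past it at 6 months and 2 lower ones at 10 months, Slc6a13 (−0.47) and Igf2 (−0.25). Their sum was then 57.9 to 70.0 CPM in Q175 and 66.5 to 86.4 CPM in Q20. None of the markers of either list was at 0 in a whole group. Of 7 neuroblast and olfactory bulb markers, which go with Pax6, 3 rose and 1 fell at 6 months, Sox11 (0.86), Calb2 (0.89), Dcx (0.46) and Th (−0.32), and their sum was 55.2 to 68.8 CPM in Q175 and 37.6 to 51.8 CPM in Q20, without overlap. At 10 months Dcx (0.25) rose and Th (−0.28) fell, and the sums overlapped, at 52.9 to 70.2 CPM in Q175 and 46.8 to 77.6 CPM in Q20. Of 6 mural cell markers 4 fell at 6 months and 3 at 10 months, and none of the thalamus and choroid plexus lists passed with edgeR at either age. The 6 thalamus markers still had a median log2 fold change of 0.96 at 6 months, with sums of 61.9 to 358 CPM in Q175 and 51.8 to 101 CPM in Q20, at the age at which Lhx9, Foxb1 and Otp were higher, and the part of such tissue in those values was not tested. At 10 months the median thalamus sum was 233 CPM in Q175 and 212 CPM in Q20. Of 3 pituitary markers tested at 6 months 2, Gh and Prl, were lower in Q175, with sums up to 3.85 CPM in Q175 and up to 96.3 CPM in Q20, a value of the single male M4. Of 6 cortical markers 1, Rasgrf2 (−0.45), was lower at 10 months. With the scores of the habenula, leptomeningeal and neuroblast lists as covariates the fitted changes at 10 months were 5.93 for Wt1, 4.67 for Onecut1, 3.02 for Pou4f1, 1.50 for Twist1 and 0.51 for Pax6, and at 6 months 5.29 for Wt1, 5.04 for Onecut1 and 0.36 for Pax6. The thalamus list was not among these scores, and the neuroblast sums did not overlap between Q175 and Q20 at 6 months. The part of other tissue in the changes was thus not tested by this fit.

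The tissue itself matched its label, and its own identity genes were lower in Q175 at 6 and 10 months. Of 20 defining genes of medium spiny neurons, all well expressed, 18 were lower in Q175 than in Q20 at both 6 and 10 months, where 18.2% and 12.1% of all genes were lower, and 2 at 2 months, with median log2 fold changes of −0.74 and −0.62 at 6 and 10 months. Penk, the enkephalin precursor, was at 494 ± 46.5 CPM in Q175 and 1010 ± 139 CPM in Q20 at 10 months, and Drd1, the D1 dopamine receptor, at 149 ± 16.2 CPM in Q175 and 240 ± 30.2 CPM in Q20. The sum of the 20 genes at that age was 6080 to 7860 CPM in Q175 and 9670 to 12900 CPM in Q20, without overlap. Their part in the values of the 5 genes was not tested beyond the relations within groups. Within Q175 at 10 months Onecut1 followed the score of this list by rank (rho = 0.833, exact permutation p = 0.0154, adjusted p = 0.347, r = 0.507), which did not pass among the 45 relations.

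Wt1 and Pax6 both lie on chromosome 2. The GENCODE M21 annotation places 2 protein-coding genes between them, of which Them7 was too low to test. Rcn1 fell by 0.54 at 10 months (adjusted p = 6.45e-08), at 39.5 CPM in Q175 and 57.4 CPM in Q20, and by 0.33 at 6 months. It was named after its values were seen. Of the 10 nearest protein-coding genes of each of the 5, with Wt1 and Pax6 not counted as neighbours of each other, between 7 and 9 were tested. At 10 months 0 rose and 4 fell around Onecut1, 0 and 4 around Pou4f1 and 0 and 1 around Twist1. Around Wt1 and around Pax6 it was the same pair, with Elp4 higher (0.13, edgeR adjusted p = 0.0116) and Rcn1 lower. Over all genes edgeR called 12.4% higher and 12.1% lower at 10 months. The antisense gene Wt1os had 0 to 2 counts in every library.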

How the data were processed

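PolyA RNA of striatum was sequenced in 208 libraries. The reads were handled with CASAVA 1.8.2, per the submitters' processing notes. Not given in the sources used here: aligner, genome build and strandedness. The authors deposited expected counts, estimated read counts per gene that need not be whole, and FPKM, which they had already scaled by length and depth. For 39179 Ensembl IDs, 37607 matched a symbol (96.0%). Expected counts were rounded (32.7% of the values above 0 were not whole within 1e-06).

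Groups follow line, age and housing. Each age was fitted with edgeR 4.0.16 in R 4.3.3 on all its groups, after filterByExpr (min.count 10, min.total.count 15), with TMM factors, robust quasi-likelihood, and sex as a covariate. The filter kept 17006, 17642 and 17170 genes at 2, 6 and 10 months. Wt1 and Onecut1 were below it at 2 months and Pou4f1 at 2 and 6 months. CPM are rounded counts per 1e+06 of the TMM-scaled library, and log2 CPM used a prior count of 1. Genes passed at a Benjamini-Hochberg adjusted p under 0.05, and SE is the size of the change over the square root of F. The 26 groups number their libraries by sex, and the labels do not say that each is a separate animal, so p-values measure the spread between these libraries. Counts cover sampling error only, and PCR copies are not separate molecules.

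The 5 genes, the gene lists and the tests were chosen with earlier results of these data known. Named are the 5 genes, the 3 genes most like each (mean of at least 0.2 CPM in some group, predicted genes left out), relatives, and up to 4 rises and 4 falls per list in Q175 against Q20 at 10 months. A few genes that this rule names are not reported here. Genes named at 6 months, striatal markers named with their levels, and Rcn1 were chosen after their values were seen. Alternatives were DESeq2 1.42.0, RLE factors, no filter, limma 3.58.1 on log2(FPKM + 1), log2(FPKM + 0.01), a prior count of 1, wild types as the reference, tissue scores as covariates, a replicate block, and libraries left out. Libraries of Q175 and Q20 with the same sex and number deviated together at 6 months (r 0.118 to 0.291 over 8 pairs). This pairing was seen in the data and is not stated in the labels. The block changed the call there on Wt1 by sex in wild types, at counts too low for a test to carry weight. It changed no other call on the 5 genes at that age. The pipeline was tested on simulated data. Figures were drawn with matplotlib.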

Additional observations from a re-analysis of the deposited data

Results flagged for a closer look

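Of 130 gene and group pairs, 9 had a library set off from the other 7 by Dixon's test at the 95% level. For normally spread values chance gives this in about 1 of 20 groups, a rate that need not hold for a few counts a library. Of these, 4 concern Wt1 in wild types at a few counts. They are F1 housed with Q20 at 2 months (0.127 CPM, 4 counts, others 0 or 1), F3 housed with Q20 at 6 months (0.0733 CPM, 3 counts, others 0 or 1), F4 housed with Q80 at 6 months (0.182 CPM, 7 counts, others 0 to 3, with pituitary markers at 9.32 CPM and others at 1.15 to 1.52) and M4 housed with Q20 at 10 months (0.16 CPM, 5 counts, others 0 to 2).

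Onecut1 was high in Q20 F4 at 2 months (0.263 CPM, 8 counts, others 0 to 4). In that library the thalamus markers summed to 550 CPM (others 57.5 to 114), the pituitary markers to 313 CPM (others 0.946 to 4.12) and the mural markers to 223 CPM (others 171 to 206). Its leptomeningeal sum was also above the others (77.5 CPM, others up to 76.8) and its neuroblast sum below them (53.1 CPM, others from 53.8). Onecut1 was also high in Q92 F2 at 2 months (0.213 CPM, 7 counts, others 0 to 3), a library with a choroid plexus sum of 22.9 CPM (others from 34.2). Pou4f1 was high in Q80 F2 at 2 months (0.245 CPM, 9 counts, others 0 to 3), a library whose leptomeningeal markers summed to 84.3 CPM, against 52.4 to 70.5 CPM in the others of its group. Twist1 was high in the wild type F3 housed with Q20 at 6 months (0.415 CPM, 17 counts, others 2 to 9). This library is also set off for Wt1, and its leptomeningeal markers summed to 99.7 CPM, against 66.2 to 87.5 CPM in the others. Pax6 was high in Q111 F3 at 6 months (13.4 CPM, 611 counts, others 7.17 to 10.1 CPM), a library with a thalamus sum of 202 CPM (others 57.1 to 126). The part of the marker levels in these values was not tested.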

How the results depend on the processing

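Of 362 values of single tests under an alternative, 348 kept their direction and their side of the threshold. Of 92 levels, 82 moved by less than the SD of the Q175 libraries on the log2 scale. Of 127 counts of passing genes, 109 stayed within a fixed ratio of the reported count, which is not a measure of spread. For Q175 against Q20 at 2 months 37 genes passed, 65 with DESeq2, 22 with limma, 79 against wild types. Q20 against wild types gave 1 with DESeq2 at 2 months, where edgeR gave 0, 7 at 6 months and 4 at 10 months. Housing gave 408 with DESeq2 and 484 with the replicate block, against 237. Females against males within Q175 gave 31 with DESeq2 at 6 months, against 20, and with single libraries left out 14 to 19 at 6 months and 9 to 16 at 10 months. Over Q111, Q140 and Q175 at 6 months the count was 103, and 54, 46 and 30 without Q111, Q140 and Q175. At 10 months it was 73, 110 with DESeq2, 21 without Q140 and 27 without Q175. The difference of sex effects gave 1 with DESeq2 and 0 with edgeR.

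Among the levels in Q175 against Q20, Wt1 at 6 months was 4.85 with a prior count of 1. Onecut1 was 4.58 on the log2(FPKM + 0.01) scale. Pax6 at 6 months was 0.16 against all wild types. At 10 months Wt1 was 1.51 with limma on log2(FPKM + 1), where the added 1 compresses changes at low levels. It was 6.16 with the replicate block, 6.38 against wild types and 5.38 with a prior count of 1. Against wild types of that age Pou4f1 was 3.80, Twist1 1.16 and Pax6 0.60. None of these changed sign. The signs that turned were all of sex differences that passed no test. Twist1 within Q175 at 6 months was −0.06 without the male M3 (−0.06 to 0.32 with each library left out). Averaged over the 3 lines, Twist1 at 6 months was 0.07 without Q140, Pax6 −0.02 without Q111 and −0.0 without Q111 F3 (up to 0.13 with other single libraries left out), and Pou4f1 at 10 months 0.17 without Q111. The causes were not tested.

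At 2 and 10 months same-numbered Q175 and Q20 libraries did not deviate together (r −0.275 to 0.108 and −0.206 to 0.0963), and 9 of 23 correlated best with their own number. The block gave 41 calls at 2 months, 6874 at 6 months and 3954 at 10 months, against 37, 6382 and 4212. Depth limits Pou4f1, Twist1 and the low groups of Wt1 and Onecut1, which rest on a few counts a library.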
